A study of Homo sapiens with 6 samples.

Results

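The amino acid and neurotransmitter transporters described here are 59 genes, taken by symbol from the 26255 genes of the table as every numbered member of the solute carrier (SLC) families SLC1A (7 genes), SLC3A (2), SLC6A (19), SLC7A (13), SLC36A (4), SLC38A (11) and SLC43A (3). RNA was measured by RNA-seq in 6 libraries of NCI-H1299, a human lung cancer cell line, 3 from cells with the control hairpin (shControl) and 3 from cells with a hairpin against Ephexin1 (shEphexin1), the guanine nucleotide exchange factor encoded by NGEF. Both shRNAs were expressed from a U6 promoter on the same kind of plasmid in stably selected cells, and both groups were grown in the same medium with serum. In each group the 3 libraries share a name stem and may come from a single selected line. The p-values therefore measure only the spread between libraries, which may be technical. An effect of the hairpin cannot be told apart from a difference between the selected lines. Values are FPKM, a fragment count divided by transcript length and by library size, which can be compared between genes.

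Amino acids cross membranes through carriers that either pump them in with sodium or protons or swap one amino acid for another. In tumor cells, pumps such as the system A carriers build up small neutral amino acids, and exchangers such as the pair of SLC7A5 and its heavy chain SLC3A2 trade these for leucine and other essential amino acids, which activate the growth kinase mTORC1 at the lysosome. The SLC6A family also holds the plasma membrane carriers that clear serotonin, dopamine, noradrenaline and glycine after their release by neurons, together with carriers of taurine, creatine and neutral amino acids.

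Of the 59 transporters, 29 reached 0.1 FPKM in at least 3 of the 6 libraries and were tested. A further 16 were above 0 somewhere but below that filter, with 0.362 FPKM as their highest value, and 14 were listed at 0 in every library. A listed 0 can be a failed estimate, because H3F3A, a histone gene that dividing cells use, is also at 0 in all 6 libraries. A gene is named as called where limma gave an adjusted p of at most 0.025 and at least a 2-fold difference on the log2(FPKM + 0.1) scale, a scale that understates the difference of low genes. SLC6A15 and SLC7A2 were called, both lower in shEphexin1 cells, and both to less than 1% of the control mean. In such bulk libraries, fewer cells with a transcript and less RNA per cell cannot be told apart. These 2 of 29 (6.90%) stand beside 1.89% of all 16020 genes tested that were called in either direction and 0.999% called lower. Both genes passed the filter only through the control libraries, so they had to differ to be tested. Without a filter, the same 2 of 45 transporters above 0 were called, beside 1.49% of all genes. The other 27 tested transporters lay between -0.39 (SLC38A1) and 0.81 (SLC7A9) on the log2 scale, and their lowest adjusted p was 0.108 (limma).

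NGEF, the targeted gene, was at 13.3, 11.7 and 16.4 FPKM in shControl replicates 1, 2 and 3 and at 9.81, 8.25 and 10.5 FPKM in the shEphexin1 replicates. The groups did not overlap, but the difference of -0.53 ± 0.163 (log2, SE, n = 3 per group) had an adjusted p of 0.103 (limma) without the replicate number as a block and 0.00284 with it, and was below 2-fold. The epithelial keratin gene KRT18 was at 67.6 to 109 FPKM in shControl cells and at 36.3 to 54.7 FPKM in shEphexin1 libraries, with an adjusted p of 0.0439 (limma), the keratin gene KRT8 was called with the replicate number as a block (adjusted p of 0.00106, limma) and not without it (0.0304), and the epithelial marker CDH1 was listed at 0 in all libraries. EPCAM, another epithelial marker, went the other way, at 0 to 0.0663 FPKM in shControl cells and 0.108 to 0.220 FPKM in shEphexin1 libraries. It passed the filter only through the shEphexin1 libraries and was not called (adjusted p of 0.175, limma). KRT19 did not exceed 0.185 FPKM and was not tested. The mesenchymal gene VIM was at 1979 FPKM or more in every library. The mesenchymal genes CDH2 (-0.21 ± 0.132) and FN1 (0.27 ± 0.116, log2, SE) differed in opposite directions and were not called. Of 10 markers of blood, endothelial, fibroblast, liver and glial cells, 4 were listed at 0 throughout and none exceeded 0.386 FPKM. Replicate 2 of both groups departed from the other libraries in the way values followed GC content, and where a result rests on it the values are given for each replicate.

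**Figure D1:**
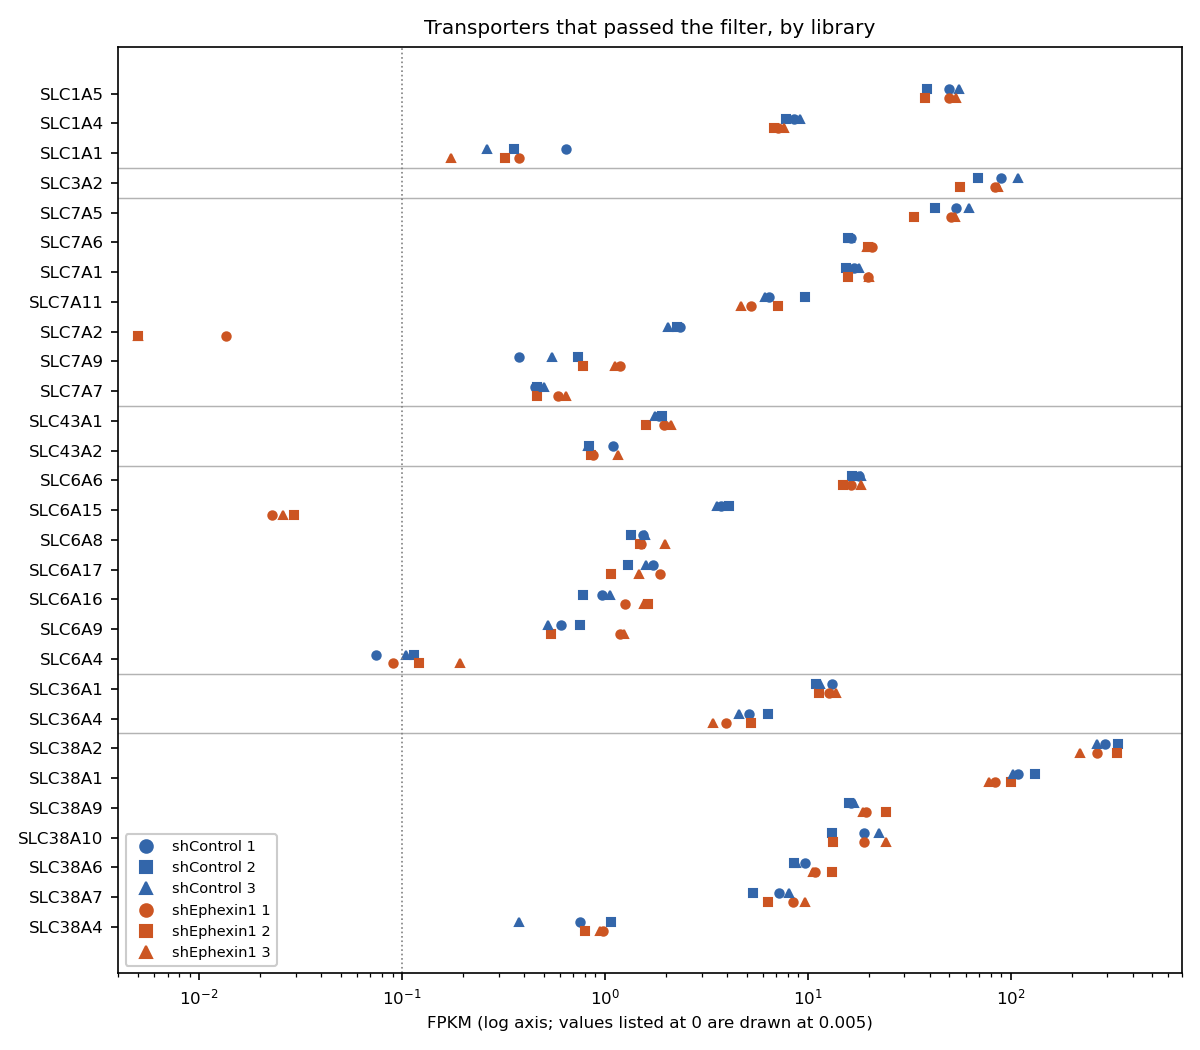
FPKM (log axis) of the 29 transporters tested, in each of the 6 libraries, ordered by family and then by mean. Blue symbols are shControl and orange symbols shEphexin1, circles, squares and triangles mark replicates 1, 2 and 3, the dotted line is the filter at 0.1 FPKM, and values listed at 0 are drawn at 0.005. SLC38A2 is the highest in every library, and all orange symbols of SLC6A15 and SLC7A2 lie far to the left of the filter line, which only single values of SLC6A4 otherwise cross.

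SLC6A15 encodes a sodium-dependent carrier of branched-chain amino acids and proline that is best known from neurons. It was at 3.76, 4.08 and 3.56 FPKM in the shControl replicates and at 0.0230, 0.0294 and 0.0259 FPKM in the shEphexin1 replicates. The 3 control libraries were close to each other, the 3 shEphexin1 libraries were all far below the filter, and the groups did not overlap. The shEphexin1 mean was 0.688% of the control mean. The fitted difference was -4.95 ± 0.202 (log2, SE, n = 3 per group; adjusted p of 8.48e-05, limma), the 6th lowest of the 16020 genes tested. The gene spans 85253270 to 85307408 of chromosome 12, minus strand (GRCh37). In the branch of the family from SLC6A15 to SLC6A20, SLC6A15 made up 57.3% to 66.2% of the summed FPKM in control libraries and 0.726% to 1.08% in shEphexin1 libraries. The sum over this branch was 6.28 ± 0.177 FPKM in shControl cells and 2.99 ± 0.227 FPKM in shEphexin1 cells (SD, n = 3). SLC6A15 alone fell from a mean of 3.80 to 0.0261 FPKM. The lower sum follows from this gene and is no result about the other members of the branch.

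SLC6A17, which loads neutral amino acids into synaptic vesicles, is a close relative of SLC6A15. It was at 1.72, 1.30 and 1.59 FPKM in shControl cells and at 1.87, 1.08 and 1.48 FPKM in shEphexin1 libraries, and these ranges overlapped. SLC6A16, whose substrate is not known, was at 0.974, 0.780 and 1.06 FPKM in shControl cells and at 1.26, 1.63 and 1.56 FPKM in shEphexin1 libraries. All 3 shEphexin1 values were above all control values, but the difference of 0.61 ± 0.202 (log2, SE) had an adjusted p of 0.123 (limma). SLC6A20, a proline carrier, did not exceed 0.0347 FPKM, and SLC6A18 and SLC6A19, carriers of the kidney and gut, were listed at 0.

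SLC7A2 encodes CAT2, a carrier of arginine, lysine and ornithine. It was at 2.34, 2.26 and 2.04 FPKM in the shControl replicates, at 0.0135 FPKM in shEphexin1 replicate 1 and at 0 in replicates 2 and 3. The control values were again close together, and the groups did not overlap. The shEphexin1 mean was 0.203% of the control mean, and the fitted difference was -4.47 ± 0.229 (log2, SE, n = 3 per group; adjusted p of 0.000194, limma), the 11th lowest of all genes tested. The gene spans 17354597 to 17428082 of chromosome 8, plus strand (GRCh37).

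The larger part of the RNA for cationic amino acid carriers came from SLC7A1, which encodes CAT1, the carrier that most cells use for arginine. SLC7A1 was at 16.9, 15.4 and 18.0 FPKM in shControl cells and at 19.9, 15.8 and 20.1 FPKM in shEphexin1 libraries, a difference of 0.14 ± 0.135 (log2, SE; adjusted p of 0.589, limma). SLC7A3, the remaining member of this group, was listed at 0 in all libraries. SLC7A2 therefore gave 10.2% to 12.8% of the FPKM of the 3 genes in control libraries and 0% to 0.0678% in shEphexin1 libraries. The sum of the 3 genes was 19.0 ± 1.20 FPKM in shControl cells and 18.6 ± 2.41 FPKM in shEphexin1 cells (SD, n = 3; exact two-sided permutation p of 0.9).

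Genes next to both transporters were examined within 1000 kb on each side, a comparison added after the values of the 2 genes were seen. Around SLC6A15, 3 of 5 listed genes were tested, and none was called. LRRIQ1 was at 0.717, 1.00 and 0.760 FPKM in shControl cells and at 0.527, 0.942 and 0.566 FPKM in shEphexin1 libraries, and its difference was -0.28 ± 0.271 (log2, SE). The other two were TSPAN19 (0.12 ± 0.560) and ALX1 (-0.26 ± 0.308), so the near loss of signal at SLC6A15 was not shared by a tested gene nearby.

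Around SLC7A2, 11 of 16 listed genes were tested. Those called are named below, and 0.999% of all genes tested were called lower. PDGFRL, which follows SLC7A2 on the chromosome and encodes a protein resembling a growth factor receptor, was at 0.791, 0.852 and 1.00 FPKM in shControl cells and at 0, 0 and 0.0606 FPKM in shEphexin1 libraries. It was called lower (-3.06 ± 0.307, adjusted p of 0.00323, limma), and the call was lost without shControl replicate 1, where the adjusted p was 0.0283, and with 1 FPKM added before the logarithm, where the difference was -0.88. Without shControl replicate 1, calls over all genes also fell, from 143 higher and 160 lower to 24 and 37. The next tested gene, MTUS1, was at 0.124, 0.243 and 0.158 FPKM in shControl libraries and was listed at 0 in all 3 shEphexin1 libraries, and it was not called (adjusted p of 0.0510, limma). Both PDGFRL and MTUS1 passed the filter only through the control libraries, so, like SLC7A2, they had to be lower in shEphexin1 cells to be tested. The tested genes on either side of them were not called: MTMR7 differed by 0.13 ± 0.185 and PCM1, a centrosome gene at 27.2 FPKM or more, by 0.13 ± 0.166 (log2, SE). Farther along, PSD3 was at 3.86, 4.21 and 3.60 FPKM in shControl cells and at 0.918, 0.969 and 0.720 FPKM in shEphexin1 libraries and was called lower (-2.05 ± 0.176, adjusted p of 0.00174, limma). DNA copy number was not measured, and its part in these values was not tested.

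The SLC1A family holds the neutral amino acid exchangers SLC1A5 and SLC1A4 and the glutamate carriers. SLC1A5, the main glutamine carrier of many tumor cells, was at 49.7, 39.0 and 55.5 FPKM in shControl cells and at 49.6, 37.9 and 53.6 FPKM in shEphexin1 libraries. In both groups replicate 2 was the lowest and replicate 3 the highest, and the difference was -0.03 ± 0.180 (log2, SE; adjusted p of 0.945, limma), with a sign that turned under median centring and quantile normalization. SLC1A4, an exchanger of alanine, serine and cysteine, was at 8.56, 7.84 and 9.21 FPKM in shControl cells and at 7.17, 6.80 and 7.65 FPKM in shEphexin1 libraries. Its groups did not overlap, but the difference of -0.24 ± 0.124 had an adjusted p of 0.302 (limma). Of the glutamate carriers, SLC1A1 was at 0.262 to 0.641 FPKM in shControl cells and at 0.174 to 0.378 FPKM in shEphexin1 libraries, and SLC1A2, SLC1A3, SLC1A6 and SLC1A7 did not exceed 0.0434 FPKM.

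Several amino acid transporter genes are known targets of ATF4, the transcription factor made when amino acids run short, which binds the letters TGATGNAA of the amino acid response element. These letters were searched on both strands of the 250 bases before each gene start in RefSeq (GRCh38.p14). No such window was available for 15 transporters, among them SLC6A15, SLC7A2 and SLC7A11, so these were not searched. Sequence outside the 250 bases was not searched for any gene. The letters were present in 2 of 66 windows of the 44 transporters that have one (3.03%) and in 1104 of 35116 windows of all genes (3.14%), and in 4 of 22 windows (18.2%) of 14 shortage response genes described further on. All 6 of these windows are shown, so that the transporters can be read beside ASNS, the asparagine synthetase gene, CHAC1, a glutathione-degrading enzyme gene, and the transcription factor genes ATF3 and CEBPG. Their genes did not share a direction. SLC1A5 was not called and SLC1A3 was at or near 0, CHAC1 was called lower, ASNS and CEBPG had lower values (-0.73 and -0.31, log2) and ATF3 higher ones (1.15), and ASNS, CEBPG and ATF3 were not called. Each is written 5′ to 3′ along its gene, with the match in capitals.
SLC1A5 (chr19:46784878-46784937, minus strand): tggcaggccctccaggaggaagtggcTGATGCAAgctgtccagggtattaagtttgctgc
SLC1A3 (chr5:36596342-36596401, plus strand): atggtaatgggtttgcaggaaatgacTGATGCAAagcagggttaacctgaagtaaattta
ASNS (chr7:97872443-97872502, minus strand): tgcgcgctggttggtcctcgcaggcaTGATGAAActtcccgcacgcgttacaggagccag
CHAC1 (chr15:40953236-40953295, plus strand): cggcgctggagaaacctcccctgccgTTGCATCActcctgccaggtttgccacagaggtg
ATF3 (chr1:212565190-212565249, plus strand): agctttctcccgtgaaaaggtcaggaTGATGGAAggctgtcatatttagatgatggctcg
CEBPG (chr19:33374045-33374104, plus strand): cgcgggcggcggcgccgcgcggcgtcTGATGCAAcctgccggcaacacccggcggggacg
In SLC1A5 the first base of the match is 97 bases before the gene start, and in ASNS 68 bases. In CHAC1 the match lies on the opposite strand. A match is a description of the sequence and not of binding.

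SLC3A2 encodes the heavy chain (CD98) that carries 6 light chains of the SLC7A family to the cell surface. It was at 89.6, 69.3 and 109 FPKM in shControl cells and at 83.6, 56.4 and 86.4 FPKM in shEphexin1 libraries. Replicate 2 was the lowest in both groups and the ranges overlapped, with a difference of -0.24 ± 0.218 (log2, SE; adjusted p of 0.569, limma). With the replicate number as a block the adjusted p was 0.0194, at a difference far below 2-fold. The other heavy chain, SLC3A1, did not exceed 0.165 FPKM and was not tested.

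SLC7A5, the light chain that imports leucine and other large neutral amino acids, was at 54.0, 42.4 and 62.7 FPKM in shControl cells and at 50.8, 33.6 and 53.3 FPKM in shEphexin1 libraries. Its difference was -0.22 ± 0.215 (log2, SE; adjusted p of 0.601, limma), and the profile over replicates followed that of SLC3A2. Reads of SLC7A5 can be shared with the pseudogenes SLC7A5P1, at 2.57 to 10.2 FPKM, and SLC7A5P2, at 4.27 to 7.89 FPKM, so the value of SLC7A5 is uncertain to that extent.

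SLC7A6, a light chain that exchanges arginine for glutamine, was higher in every shEphexin1 library. It was at 16.3, 15.7 and 16.2 FPKM in shControl cells and at 20.6, 19.7 and 19.6 FPKM in shEphexin1 libraries. The spread within each group was small and the groups did not overlap, but the difference of 0.31 ± 0.0985 (log2, SE) was below 2-fold, with an adjusted p of 0.108 without the block and 0.00648 with it (limma). The overlapping gene SLC7A6OS was at 13.5 to 15.4 FPKM in shControl cells and at 13.9 to 17.6 FPKM in shEphexin1 libraries.

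SLC7A11, the cystine importer that feeds glutathione synthesis, was at 6.46, 9.66 and 6.15 FPKM in shControl cells and at 5.25, 7.17 and 4.71 FPKM in shEphexin1 libraries. Replicate 2 was the highest in both groups, and within each replicate the shEphexin1 value was the lower. The difference was -0.37 ± 0.228 (log2, SE), with an adjusted p of 0.396 without the block and 0.0165 with it (limma). Of the remaining light chains, SLC7A7 was at 0.452 to 0.646 FPKM over all libraries, SLC7A10 did not exceed 0.0850 FPKM and SLC7A8 was listed at 0. The 6 light chains together came to 77.1 ± 8.65 FPKM in shControl cells and 72.2 ± 9.79 FPKM in shEphexin1 cells (SD, n = 3; exact two-sided permutation p of 0.7), beside 89.2 ± 19.7 and 75.5 ± 16.6 FPKM of the SLC3A2 heavy chain (exact p of 0.4).

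SLC7A9, the partner of SLC3A1 in cystine uptake by the kidney, had the largest positive difference among the transporters tested, at a low level. It was at 0.380, 0.738 and 0.547 FPKM in shControl cells and at 1.19, 0.783 and 1.12 FPKM in shEphexin1 libraries. The groups did not overlap, but replicate 2 of the 2 groups was nearly level, and the difference of 0.81 ± 0.282 (log2, SE) had an adjusted p of 0.141 (limma). SLC7A4, an untested member, was at 0.0481, 0 and 0 FPKM in shControl cells and at 0.182, 0.0961 and 0.149 FPKM in shEphexin1 libraries, which also do not overlap. The SLC43A carriers of large neutral amino acids were at 1.60 to 2.12 FPKM (SLC43A1) and 0.830 to 1.16 FPKM (SLC43A2) over all libraries, and their differences of 0.03 ± 0.171 and 0.06 ± 0.218 changed sign under quantile normalization.

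The SLC38A family held the most RNA. SLC38A2, the system A carrier of small neutral amino acids that cells regulate with amino acid supply, was the highest of the 59 transporters in every library. It was at 290.7, 340.4 and 265.3 FPKM in shControl cells and at 266.4, 334.2 and 218.8 FPKM in shEphexin1 libraries. It made up 33.4% to 47.0% of the summed FPKM of all 59 transporters, with the largest share in replicate 2 of each group. Its difference of -0.14 ± 0.172 (log2, SE; adjusted p of 0.679, limma) was within the spread between replicates, and its sign turned under quantile normalization, with chromosome-arm medians subtracted and without shEphexin1 replicate 3.

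SLC38A1, the second system A carrier, was at 109, 132 and 103 FPKM in shControl cells and at 84.2, 100.6 and 78.3 FPKM in shEphexin1 libraries. The groups did not overlap, and the differences within replicates 1, 2 and 3 were -0.38, -0.39 and -0.39 on the log2 scale. Over the groups the difference was -0.39 ± 0.140 (log2, SE), with an adjusted p of 0.153 without the block and 0.000926 with it (limma), and it was below 2-fold. System A as a whole (SLC38A1, SLC38A2 and SLC38A4) came to 414.3 ± 53.8 FPKM in shControl cells and 361.8 ± 69.3 FPKM in shEphexin1 cells (SD, n = 3; exact two-sided permutation p of 0.4).

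Other members of the SLC38A and SLC36A families, some of which act at lysosomes, had lower FPKM. SLC38A7 was at 5.39 to 8.10 FPKM in shControl cells and at 6.38 to 9.67 FPKM in shEphexin1 libraries. These ranges overlapped (0.24 ± 0.211, log2, SE; adjusted p of 0.562, limma), and the shEphexin1 value was the higher in every replicate pair. SLC38A9, the lysosomal arginine sensor of mTORC1, was at 16.3, 16.0 and 17.0 FPKM in shControl cells and at 19.4, 24.3 and 18.7 FPKM in shEphexin1 libraries. All shEphexin1 values were above all control values, with replicate 2 the farthest, and the difference was 0.33 ± 0.130 (log2, SE; adjusted p of 0.184, limma). SLC38A6, a less studied member, was at 9.72, 8.56 and 8.72 FPKM in shControl cells and at 10.9, 13.2 and 10.6 FPKM in shEphexin1 libraries, also without overlap (0.35 ± 0.133, adjusted p of 0.167, limma). SLC36A1, a proton-coupled exporter of small amino acids from lysosomes, was at 10.97 to 13.2 FPKM in shControl cells and at 11.3 to 13.8 FPKM in shEphexin1 libraries. SLC36A4 was at 5.17, 6.39 and 4.57 FPKM in shControl cells and at 3.97, 5.23 and 3.41 FPKM in shEphexin1 libraries, and the ranges overlapped (-0.36 ± 0.203, adjusted p of 0.353, limma).

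Apart from SLC6A15, SLC6A16 and SLC6A17, the SLC6A genes for taurine, creatine, glycine and serotonin carriers were the ones above the filter. SLC6A6, the taurine carrier, was the highest of the family at 16.5 to 18.2 FPKM in shControl cells and at 15.0 to 18.2 FPKM in shEphexin1 libraries (-0.09 ± 0.119, log2, SE). SLC6A8, the creatine carrier, was at 1.35 to 1.58 FPKM in shControl cells and at 1.49 to 1.99 FPKM in shEphexin1 libraries, and its reads can be shared with the copy SLC6A10P, which did not exceed 0.687 FPKM. SLC6A9, a glycine carrier, was at 0.611, 0.759 and 0.523 FPKM in shControl cells and at 1.19, 0.543 and 1.25 FPKM in shEphexin1 libraries. In replicates 1 and 3 it was higher in shEphexin1 and in replicate 2 lower, and the difference of 0.52 ± 0.329 had an adjusted p of 0.405 (limma). SLC6A4, the serotonin carrier, stayed at 0.0741 to 0.194 FPKM, and the noradrenaline carrier SLC6A2 was listed at 0. The dopamine carrier SLC6A3 did not exceed 0.0359 FPKM.

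**Figure D2:**
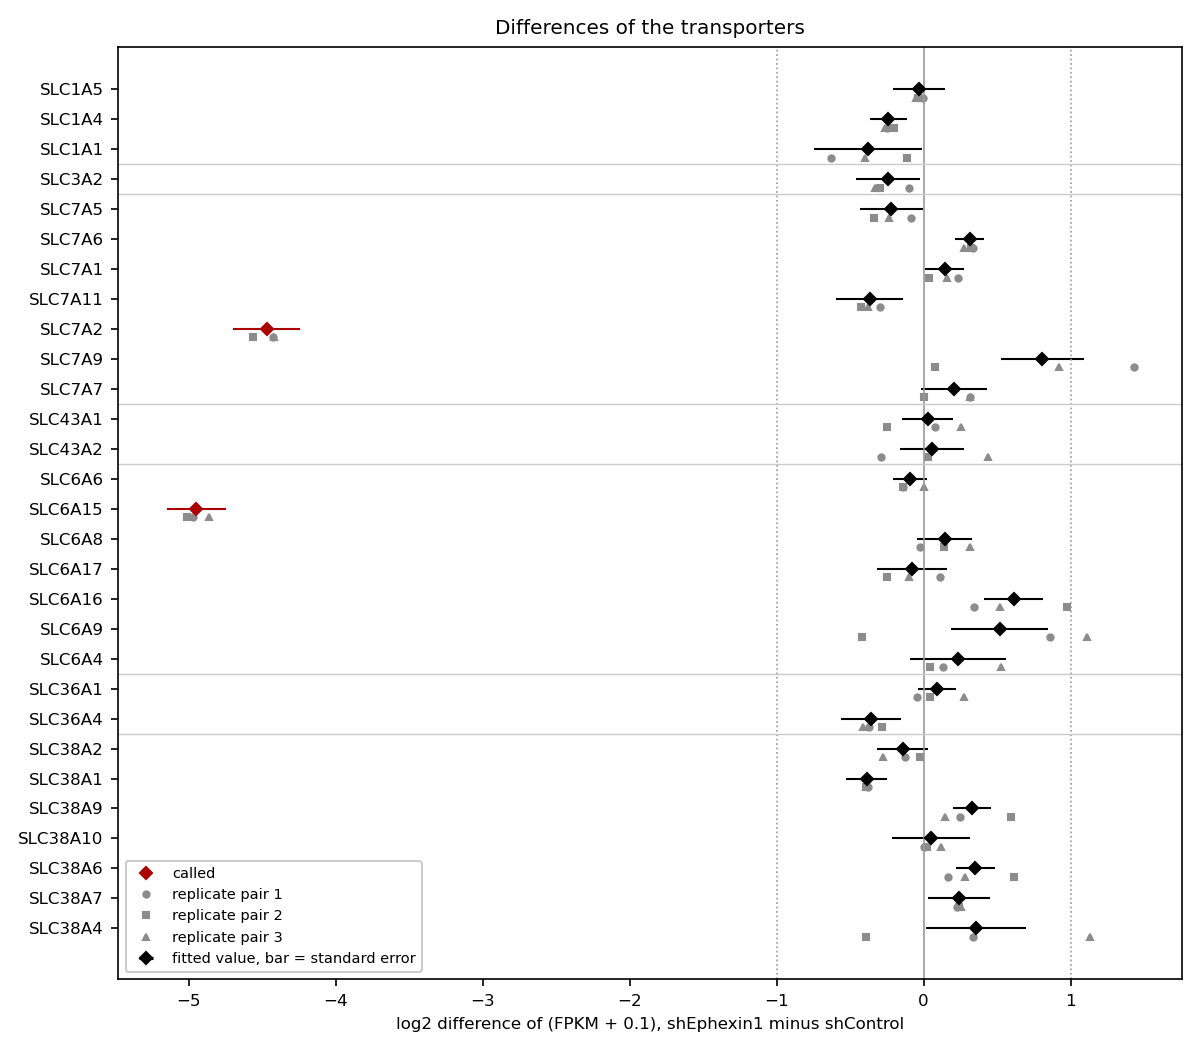
Fitted log2 difference of (FPKM + 0.1), shEphexin1 minus shControl, of the 29 transporters tested, with its standard error (diamonds and bars), and the difference within each of the 3 replicate pairs (grey symbols). Dotted lines mark 2-fold in either direction, and red diamonds are the genes called. SLC6A15 and SLC7A2 are near -5 and -4.5, and the fitted values of all others lie within 2-fold.

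Over the 29 transporters tested, 16 were higher and 13 lower in shEphexin1 cells, and the median log2 difference was 0.05, beside -0.01 for all genes tested. In 9 of 29 (31.0%) the groups did not overlap, beside 28.3% of all genes. In 20 of 29 (69.0%) all 3 replicate pairs differed in the same direction, beside 62.2% of all genes. With the replicate number as a block, 6 of 29 (20.7%) reached an adjusted p of 0.025 at any fold (SLC6A15, SLC7A2, SLC38A1, SLC3A2, SLC7A6 and SLC7A11), beside 25.7% of all genes. Without the block the number was 2, and the share of all genes at that limit is not given. The shares that have a whole-table value beside them in this paragraph lie near it. The FPKM of all 59 transporters summed to 746.8, 765.4 and 749.8 in shControl and 690.9, 711.2 and 654.6 in shEphexin1 libraries, which do not overlap (exact two-sided permutation p of 0.1, the smallest possible). Within replicates 1, 2 and 3 the transporter sum changed by -7.49%, -7.08% and -12.7%, and the sum over all genes of the table by -11.0%, -8.06% and -9.86%. Both sums were thus lower in every replicate pair.

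The related genes were read from 5 lists. Of 11 tested transporters from other families, including vesicular and lysosomal carriers, none was called by limma, and 4 had an unadjusted p of at most 0.05, a limit that 23.3% of all genes tested met. SLC17A5, a lysosomal exporter of sialic acid and acidic amino acids, was the most abundant at 26.2, 22.5 and 22.8 FPKM in shControl cells and at 28.9, 31.8 and 28.5 FPKM in shEphexin1 libraries, and PQLC2, a lysosomal exporter of cationic amino acids, was at 8.16 to 11.6 FPKM and 9.70 to 15.6 FPKM.

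Of all genes tested, 1.89% were called in either direction. Among 24 tested enzymes of amino acid metabolism, 1 was called, ASS1, which was higher. It encodes argininosuccinate synthase, with which cells make arginine from citrulline. It was at 0.501, 0.628 and 0.502 FPKM in shControl cells and at 4.21, 3.32 and 4.87 FPKM in shEphexin1 libraries, a difference of 2.71 ± 0.204 (log2, SE; adjusted p of 0.00106, limma). The shEphexin1 libraries were thus all far above the controls for ASS1, whereas ASL, the next enzyme of the pathway, was at 17.9 to 30.5 and 19.1 to 29.4 FPKM and overlapped. BCAT1, which starts the breakdown of branched-chain amino acids, was at 22.4, 27.7 and 20.7 FPKM in shControl cells and at 10.7, 15.3 and 9.24 FPKM in shEphexin1 libraries. Its difference of -1.02 ± 0.207 had an adjusted p of 0.0331 without the block and 0.000423 with it (limma), so that the block added it as a second call, as did leaving out shEphexin1 replicate 2 (adjusted p of 0.0125). With chromosome-arm medians subtracted its difference was -0.59, with an adjusted p of 0.167 (limma). The most abundant enzyme genes, ODC1 and GLUD1, were at 107 to 139 and 82.7 to 118 FPKM and were not called. In the list, 8 genes were higher and 16 lower, with a median of -0.18, beside 51.1% lower and a median of -0.01 for all genes. An unadjusted p of at most 0.05 (limma) was reached by 11 of the 24, beside 23.3% of all genes tested.

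Of 29 genes of lysosomal amino acid sensing by mTORC1, none was called by limma, and 5 had an unadjusted p of at most 0.05, beside the same 23.3% of all genes. The list includes MTOR, RPTOR and MLST8, which belong to mTORC1 itself. Their median was -0.07 with 12 higher and 17 lower, beside -0.01 and 51.1% lower for all genes. The most abundant, LAMTOR4 and RHEB, were at 97.7 to 201 and 54.4 to 70.6 FPKM. SEH1L was at 42.6, 46.9 and 43.6 FPKM in shControl cells and at 26.9, 30.4 and 26.7 FPKM in shEphexin1 libraries. Its groups did not overlap, and the difference of -0.66 ± 0.105 (log2, SE) was below 2-fold, with an adjusted p of 0.01535 (limma).

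Among the 15 genes of the amino acid shortage response, 13 were lower in shEphexin1 cells, beside 51.1% of all genes tested, and 3 were called, all lower, beside 0.999%. Their median was -0.51, beside -0.01 for all genes. Of the 15, 10 had an unadjusted p of at most 0.05 (limma), beside 23.3% of all genes tested. TRIB3, a pseudokinase gene induced by ATF4, was at 15.7, 12.9 and 16.9 FPKM in shControl cells and at 6.83, 5.29 and 7.50 FPKM in shEphexin1 libraries (-1.21 ± 0.173, adjusted p of 0.0112, limma). CHAC1 was at 13.6, 10.9 and 17.4 FPKM in shControl cells and at 6.71, 3.94 and 5.44 FPKM in shEphexin1 libraries (-1.37 ± 0.241, adjusted p of 0.0209, limma). DDIT4, an inhibitor of mTORC1, was at 44.3, 34.3 and 51.7 FPKM in shControl cells and at 21.9, 13.03 and 20.3 FPKM in shEphexin1 libraries (-1.25 ± 0.231, adjusted p of 0.0245, limma). In each of the 3 genes every shEphexin1 value was below every control value.

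These calls were lost in fits without single libraries. Calls over all genes also fell, from 143 higher and 160 lower to 24 and 37 without shControl replicate 1. Without shEphexin1 replicate 1 they fell to 23 and 56, and without shEphexin1 replicate 2 they were 159 and 157. Such losses were thus not particular to these 3 genes. The adjusted p of TRIB3 was 0.0766 without shControl replicate 1, 0.0501 without shControl replicate 3, 0.0569 without shEphexin1 replicate 1 and 0.0302 without shEphexin1 replicate 3 (limma). That of CHAC1 was 0.106, 0.0281 and 0.0710 without shControl replicates 1, 2 and 3 and 0.0499, 0.0275 and 0.0704 without the shEphexin1 replicates (limma). That of DDIT4 was 0.118, 0.0319 and 0.0841 without shControl replicates 1, 2 and 3, and 0.0696 and 0.0641 without shEphexin1 replicates 1 and 3 (limma). The log2 differences stayed between -1.55 and -1.02 in these fits, and with the replicate block the adjusted p was 0.000926 or lower for all 3 genes.

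ASNS was at 121, 128 and 129 FPKM in shControl cells and at 77.3, 80.1 and 70.0 FPKM in shEphexin1 libraries, a difference of -0.73 ± 0.0965 (log2, SE) below 2-fold, with an adjusted p of 0.0083 (limma) that ranged from 0.0119 without shEphexin1 replicate 2 to 0.0625 without shControl replicate 1 and was above 0.025 without any other single library. It also belongs to the enzyme list. ATF4 itself was at 187, 185 and 202 FPKM in shControl cells and at 134, 124 and 146 FPKM in shEphexin1 libraries (-0.51 ± 0.101, adjusted p of 0.0312, limma). Both genes were lower in all 3 replicate pairs without being called. The 2 genes of the list that were higher were PPP1R15A (0.11 ± 0.210) and ATF3, which was at 0.468 to 1.38 FPKM in shControl cells and at 1.64 to 2.27 FPKM in shEphexin1 libraries. For ATF3 the groups did not overlap, and the difference of 1.15 ± 0.354 (log2, SE) had an adjusted p of 0.103 (limma). Of the transporters commonly placed under the same response, SLC7A11, SLC3A2, SLC7A5, SLC1A5 and SLC38A2 differed by -0.37 to -0.03, as given above. SLC7A1 (0.14) and SLC6A9 (0.52) had higher values. These transporters were picked after their values were seen, and none of them was called.

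Of 12 tested accessory and regulatory proteins of the transporters, 1 was called, beside 1.89% of all genes tested that were called in either direction. MUC1, a membrane mucin gene, was the gene called, and it was higher. It was at 1.20, 0.932 and 0.776 FPKM in shControl cells and at 2.47, 2.38 and 2.82 FPKM in shEphexin1 libraries (1.33 ± 0.203, adjusted p of 0.0139, limma). The call was lost without shControl replicates 1, 2 and 3 in turn (adjusted p of 0.0421, 0.0373 and 0.0507, limma) and without shEphexin1 replicates 1 and 3 (0.0753 and 0.0618). Calls over all genes also fell in each of these fits. BSG and CD44, membrane partners of carriers, were the most abundant at 562 to 1008 and 121 to 167 FPKM and were not called.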

How the data were processed

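RNA was measured in 6 libraries. Per the labels and the study's methods, total RNA was taken with TRIzol, libraries were made with a stranded total RNA kit, reads were mapped to GRCh37/hg19 with TopHat2 2.0.13, and the authors deposited FPKM from Cuffdiff (Cufflinks 2.2.1) with geometric normalization and pooled dispersion. The labels name the neo version of the shRNA plasmid and the methods the hygro version. Whether counting used strand is not given in the sources used here, so antisense partners may share reads.

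Depth is not part of these values. The spacing of low values gave modal ratios from 0.702 to 1.27 between pairs of libraries, with 7.74% to 38.0% of the low genes in the modal window, so no counts were recovered, depth is unknown and no counting interval is given. A total of 28 gene names had become dates and 0 sample columns were left out.

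Genes that reached 0.1 FPKM in 3 or more of the 6 libraries were compared on log2(FPKM + 0.1) with limma 3.58.1 (eBayes with trend, R 4.3.3) and Benjamini-Hochberg adjustment over 16020 genes; errors of log2 differences are standard errors of that fit. Sums were compared with exact permutation tests. The fit was tested on simulated data. Positions are from GENCODE release 44 on GRCh37, and promoter windows from RefSeq (GRCh38.p14).

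Same-numbered libraries deviated together from their group means (Pearson r of 0.234, 0.639 and 0.513 for replicates 1, 2 and 3 over 12638 genes), so the replicate numbers were taken to pair the samples, on the evidence of the data alone. For replicate 1 this evidence is weak, as shControl replicate 3 and shEphexin1 replicate 1 gave an r of 0.149. Every adjusted p with the replicate block rests on this pairing, which was read from the same values. The members and lists were chosen with earlier results of these data known. Named were called members, the 3 highest members of each family by mean FPKM, NGEF, and of each related list the genes called and the 2 highest; the others were named after their values were seen. One of the untested members is not reported by name here. A total of 20 alternatives were tried.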

Additional observations from a re-analysis of the deposited data

How the results depend on the processing

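SLC6A15 and SLC7A2 were called lower in all 20 alternatives, with log2 differences from -6.72 to -2.22 and from -7.38 to -1.68, whose ends came with 0.01 and 1 FPKM added before the logarithm, and adjusted p (limma) of at most 0.00192 and 0.00453. The replicate block changed no other call than those given with it in the report. The number of transporters with an adjusted p of at most 0.025 at any fold rose from 2 to 5 with a term for replicate 2 as a batch. It was 6 with the replicate block or with a loess correction for GC content and length, and 10 with both. With the block, 25.7% of all genes reached this limit, and calls over all genes rose from 143 higher and 160 lower to 309 and 247. The share of all genes at any fold is not given for the other settings, so these counts are no result about the transporters. The median log2 difference of the transporters was -0.0554 with a filter at 1 FPKM, -0.0540 with the loess correction with and without the block, and -0.0537 to 0.139 when single libraries were left out.

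Calls in the lists moved by small counts. The other transporters had 1 call (SLC12A8) without a trend, with the batch term or with the loess correction. The enzymes had 2 in several settings, ASS1 in each and a second gene that differed. It was BCAT1 with the replicate block, with replicates 1 and 3 alone, with the batch term and at an adjusted p of 0.05, PYCR1 with the loess correction with or without the block, and ASNS with chromosome-arm medians subtracted and at any fold. They had 1 to 2 when single libraries were left out. The mTORC1 list had 1 (SEH1L, lower) at any fold. The shortage response had 1 without a filter and without a trend (TRIB3) and 1 with arm medians subtracted, where TRIB3 (adjusted p of 0.0329, limma), CHAC1 (0.0264) and DDIT4 (0.0711) were all lost and ASNS was called (-1.03, adjusted p of 0.00255). It had 4 with the loess correction and the replicate block together, where ATF3 was added to TRIB3, CHAC1 and DDIT4. It had 0 to 2 when single libraries were left out. The accessory list had 0 with 1 FPKM added and 0 to 1 when single libraries were left out.

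Small differences that changed sign, none of them called, were those of SLC1A5 (0.00421 with median centring, 0.0534 with quantile normalization, -0.175 to 0.116 without single libraries), SLC38A2 (0.130 quantile, 0.0240 arm medians, -0.300 to 0.00562 without single libraries), SLC43A1 (-0.0498 quantile, -0.0503 loess with and without the block, -0.0537 to 0.139 without single libraries), SLC43A2 (-0.0784 quantile, -0.0540 loess with and without the block, -0.00522 arm medians, -0.0701 to 0.178 without single libraries), BSG (-0.00922 without shControl replicate 2 and up to 0.390 without other single libraries) and RHEB (-0.157 arm medians). The cause was not tested. Depth is unknown, so the signal of SLC6A15 and SLC7A2 in shEphexin1 cells cannot be told from 0.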
